A study of Mus musculus with 16 samples.

Results

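Phkg1, the muscle-type catalytic subunit gene of phosphorylase kinase, was followed together with its partner subunit genes and the enzymes of glycogen breakdown and synthesis in ventricular myocytes of mice under pressure overload. The 9 genes were Phkg1, Phkg2, Phka1, Phka2 and Phkb (phosphorylase kinase), Pygm and Pygb (glycogen phosphorylases), Gys1 (glycogen synthase) and Gbe1 (glycogen branching enzyme). They were found by symbol among the 35682 genes of the deposited count table, and each symbol matched 1 row. All 9 passed the low-count filter and were among the 10945 genes tested. Phkg1 had been singled out by its difference between the genotypes in these same animals, so that difference is given as a description with no test. The other 8 genes were named for their place in the same pathway, with earlier results of these data known, and are called partners below.

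The table covered 16 mice, 8 wild-type littermates (WT) and 8 carriers of the transgene B3AR-Tg, a line named for the beta-3 adrenergic receptor. All had undergone transverse aortic constriction (TAC), an operation that narrows the aorta and loads the left ventricle, 9 weeks before their adult ventricular myocytes were isolated by Langendorff perfusion and plated for 1 hour. No group without the surgery was analysed here, and the promoter and species of the transgene, the strain, the age and the sex were not given in the sources used here. Labelled replicates were separate animals. Mouse Adrb3 held 0 to 4 counts in every animal of both genotypes and therefore did not check the genotype labels. Adgrb3, a separate gene of a similar name, held 0 to 3 counts in WT and 247 to 723 in B3AR-Tg.

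Glycogen is the stored glucose polymer of muscle. Phosphorylase kinase, a complex of several kinds of subunit, is switched on by calcium and by protein kinase A downstream of adrenergic receptors, and its gamma subunit phosphorylates glycogen phosphorylase, which then releases glucose 1-phosphate. Glycogen synthase builds the polymer and the branching enzyme adds its branch points.

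Library totals ranged from 6926821 to 11584656 counts in WT and from 5985335 to 14365864 in B3AR-Tg. Levels are given as CPM, counts scaled to a common library size with TMM factors. On this scale 8 heart-muscle marker genes summed to a median of 44669 CPM in WT against 51028 CPM in B3AR-Tg. Of these 8, Ryr2 was called higher and Tnnc1 lower. Markers of other cells were present at low levels. Fibroblast markers summed to 31.6 to 73.9 CPM in WT and 11.1 to 43.7 CPM in B3AR-Tg, and endothelial markers to 99.0 to 136.5 and 40.2 to 152.5 CPM. Of the tested markers, 1 of 5 fibroblast and 3 of 6 endothelial genes were lower in B3AR-Tg, against 0 of 5 mural and 0 of 2 leukocyte genes (edgeR, adjusted over all genes, where 2.88% of tested genes were lower), and Cd3e was at 0 in every animal. The 5 load genes Nppa, Nppb, Myh7, Acta1 and Ankrd1 were all lower in B3AR-Tg. In such bulk samples, fewer cells of a type and less RNA per cell cannot be told apart.

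Phkg1 was higher in every B3AR-Tg animal than in any WT animal. Of all tested genes, 0.201% stood that way, and since this contrast picked Phkg1 nothing is read from its being among them. In WT it was at 9.11 CPM in the lowest animal, 14.9 CPM at the median and 21.7 CPM in the highest, and in B3AR-Tg at 36.8, 40.1 and 47.2 CPM. The lowest B3AR-Tg animal lay 1.70-fold above the highest WT animal. Its mean was 14.6 ± 3.79 CPM in WT against 41.4 ± 4.03 CPM in B3AR-Tg (SD, n = 8 each), from 102 to 164 and from 251 to 588 counts per library. The fitted difference was 1.51 on the log2 scale with a standard error of 0.13 (95% interval 1.24 to 1.78), or 2.85-fold. The relative spread was 25.9% of the mean in WT and 9.75% in B3AR-Tg. Because Phkg1 is the isoform of skeletal as well as heart muscle, markers of skeletal muscle fibres were read beside it. The 8 skeletal markers summed to 0.240 to 1.62 CPM in WT and 0.623 to 1.47 CPM in B3AR-Tg, and Myh1, Myh2, Myh4 and Atp2a1 had at most 3 counts in any animal.

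The promoters of the catalytic pair are shown because Phkg1 and Phkg2 encode the 2 isoforms of the same subunit. Each covers 250 bases before and 50 after the RefSeq start, on GRCm38.p6, at chr5:129879039-129879338 on the minus strand for Phkg1 and at chr7:127573098-127573397 on the plus strand for Phkg2. Capitals mark E-boxes (CANNTG), the core recognised by basic helix-loop-helix factors.
Phkg1: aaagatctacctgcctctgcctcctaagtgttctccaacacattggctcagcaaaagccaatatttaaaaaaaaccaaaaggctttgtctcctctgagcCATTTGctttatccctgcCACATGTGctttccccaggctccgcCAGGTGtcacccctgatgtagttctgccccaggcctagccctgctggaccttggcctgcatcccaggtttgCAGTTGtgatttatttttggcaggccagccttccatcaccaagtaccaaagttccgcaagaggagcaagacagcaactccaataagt
Phkg2: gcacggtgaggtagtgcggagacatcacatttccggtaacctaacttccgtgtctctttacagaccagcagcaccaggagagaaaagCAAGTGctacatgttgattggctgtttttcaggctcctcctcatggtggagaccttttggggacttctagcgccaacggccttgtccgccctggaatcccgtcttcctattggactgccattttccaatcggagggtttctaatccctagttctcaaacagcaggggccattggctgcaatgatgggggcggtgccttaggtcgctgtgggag
The Phkg1 window held 5 E-boxes, which began 151, 133, 131, 108 and 37 bases before the start and of which those at 133 and 131 overlap. The Phkg2 window held 1. Among the 32851 RefSeq promoters of this length, 72.3% held at least 1 E-box and 2.1% held 5 or more, and E-box numbers in the other 7 members were between 0 and 3. The Phkg1 window held 2 CpG dinucleotides, where 23.3% of promoters held as few or fewer, against 11 in Phkg2 and between 4 and 38 in the other members. No cAMP response element (TGACGTCA, in 1.79% of promoters), core of that element (TGACG, 20.8%, also part of the full one), nuclear receptor site (AAGGTCA, 4.72%), TATA box (TATAAA, 13.6%) or MEF2 site (3.69%) matched in the Phkg1 or Phkg2 window on either strand. The GC box (GGGCGG, 35.7%) matched 2 times in Phkg2 and 0 times in Phkg1. These matches describe letters in a window, and these motifs were chosen with the expression values known.

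**Figure D1:**
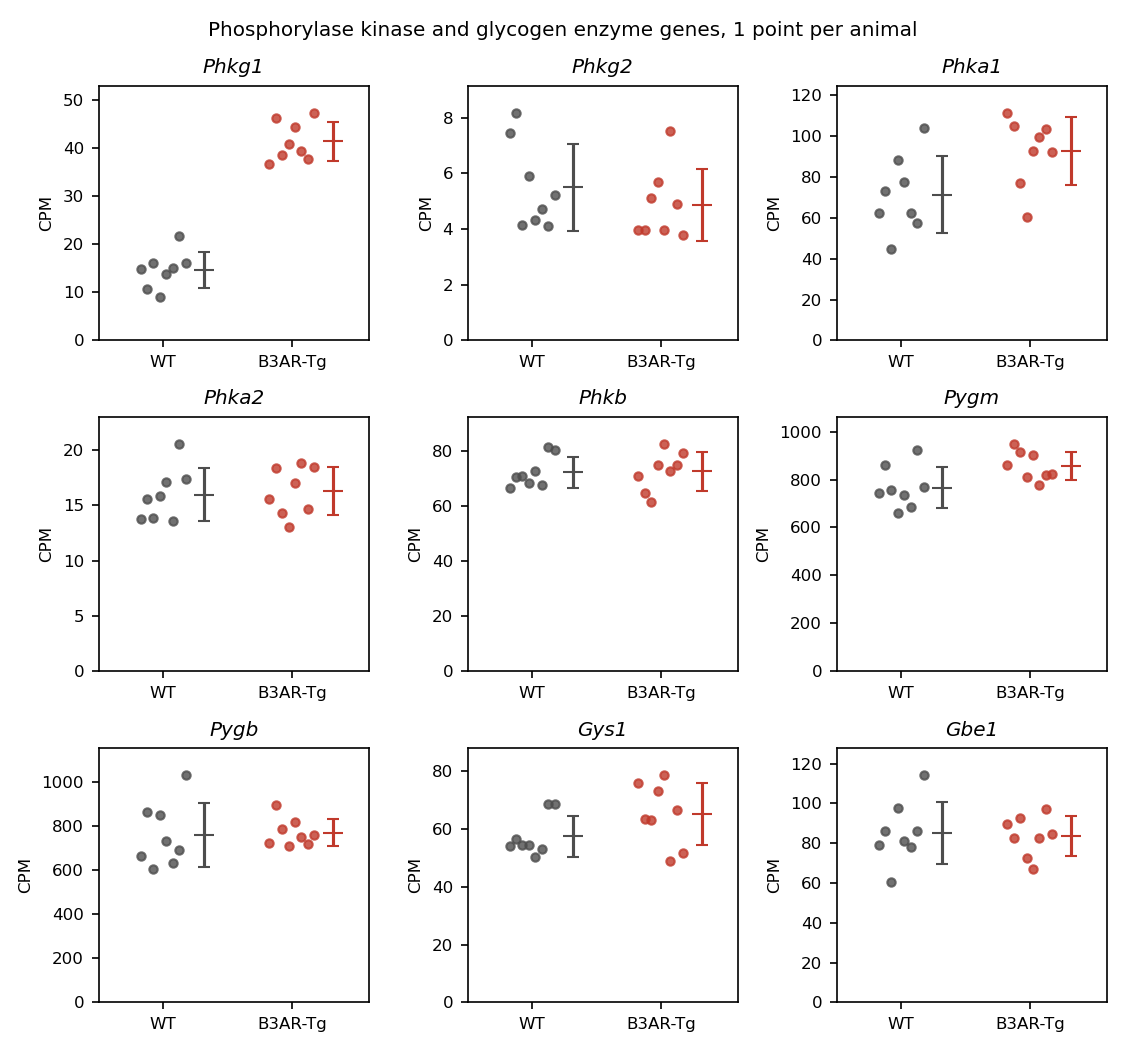
CPM of each of the 9 genes, 1 point per animal, with the mean and SD beside the points and every axis starting at 0. Phkg1 is the gene whose groups do not overlap, at 9.11 to 21.7 CPM in WT and 36.8 to 47.2 CPM in B3AR-Tg, while the groups of the other 8 genes overlap.

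The partners did not pass the test between genotypes. Of the 9 genes, 1 passed at an adjusted p under 0.05 (edgeR, Phkg1 itself, whose contrast proposed the list), where 4.91% of all tested genes passed. Among the 8 partners 0 passed by edgeR, 0 by DESeq2 and 0 by limma voom, and 1 had an unadjusted p under 0.05, a level reached by 19.3% of all tested genes. Groups of 0 partners were free of overlap, against 0.448% of all tested genes. The highest upper bound among the partners' 95% intervals was 0.68 on the log2 scale, or 1.6-fold.

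Phkg2, the catalytic isoform best known from liver, was a scarce transcript. It was at 4.10 to 8.16 CPM in WT (median 4.96) and 3.77 to 7.53 CPM in B3AR-Tg (median 4.44), a difference of −0.20 on the log2 scale (95% interval −0.58 to 0.19, edgeR adjusted p = 0.595). Of the 8 B3AR-Tg animals 3 lay above the WT median and 4 below every WT animal. With 28 to 96 counts per library it was the least deeply counted of the 9 genes.

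Among the partners Phka1 had the lowest adjusted p, which did not pass. Phka1, the muscle isoform encoded on chromosome X, was at 45.0 to 104.1 CPM in WT (median 67.7) and 60.3 to 111.1 CPM in B3AR-Tg (median 95.9). In all, 7 of 8 B3AR-Tg animals were above the WT median, and B3AR-Tg replicate 4, the shallowest library, was the exception at the low end. The fitted difference of 0.38 (95% interval 0.07 to 0.68) did not pass over all genes (edgeR adjusted p = 0.149). Phka2, the liver isoform and also on chromosome X, was at 15.9 ± 2.36 CPM in WT against 16.3 ± 2.20 CPM in B3AR-Tg, a difference of 0.03 (95% interval −0.19 to 0.25, edgeR adjusted p = 0.904).

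The beta subunit has a single gene, Phkb, and it was the steadiest member in WT. It was at 66.7 to 81.4 CPM in WT (median 70.7) and 61.4 to 82.4 CPM in B3AR-Tg (median 73.8), with a relative spread of 7.79% and 9.65%. The fitted difference was 0.01 with a standard error of 0.07 (95% interval −0.15 to 0.16, edgeR adjusted p = 0.974).

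To set subunits beside each other, CPM was divided by the length of the principal transcript. On that scale Phkg1 lay below Phkb in WT, with a ratio of 0.453 ± 0.0966 (0.301 to 0.600 over 8 animals), and above it in B3AR-Tg, with 1.29 ± 0.158 (1.13 to 1.61). Every WT animal thus held less Phkg1 than Phkb per kilobase and every B3AR-Tg animal more. The side on which B3AR-Tg fell rests on the length used: over the union of all annotated exons, which for Phkg1 is 6509 instead of 2374 bases, the ratio was 0.229 ± 0.0488 in WT and 0.652 ± 0.0797 in B3AR-Tg. The separation of the genotypes is the same with either length, because a fixed length cancels between them. It carries the contrast that picked Phkg1, so nothing is read from it.

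Isoform use followed from these levels. Per kilobase, Phkg1 made up 66.7% ± 10.4 of the catalytic pair in WT (50.4% to 80.4%) and 86.8% ± 3.49 in B3AR-Tg (80.2% to 90.7%). Phka1 made up 74.5% ± 4.99 of the alpha pair in WT and 79.1% ± 2.48 in B3AR-Tg, and the ranges of both shares overlapped between genotypes. Both gamma genes together stood at 0.677 ± 0.0846 of Phkb in WT and 1.49 ± 0.165 in B3AR-Tg, or at 0.372 and 0.778 over the union of exons. Phkg1 enters its share of the catalytic pair and this ratio, so both carry the contrast that picked it and nothing is read from their differences.

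**Figure D2:**
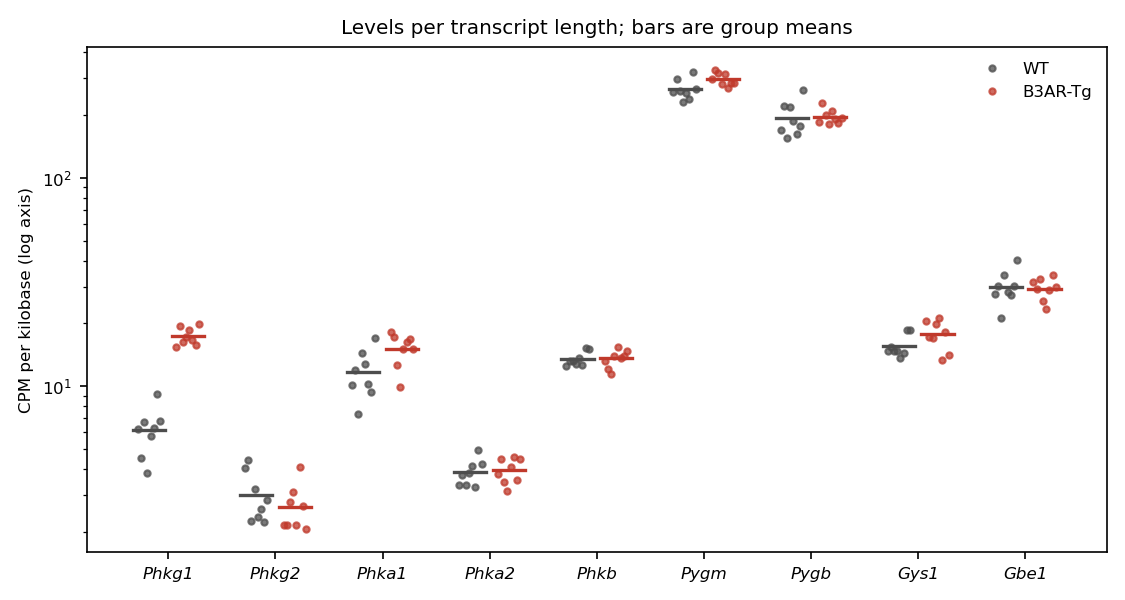
CPM per kilobase of principal transcript on a log axis for the 9 genes, 1 point per animal and a bar at each group mean. Pygm and Pygb stand far above the kinase subunits, and Phkg1 has a mean of 6.16 in WT, below Phka1 and Phkb, and of 17.4 in B3AR-Tg, beside Gys1.

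The order of levels per kilobase was led by the phosphorylases in both genotypes. In WT, Pygm was at 266.6 ± 29.8 CPM per kilobase and Pygb at 194.2 ± 37.0, with overlapping ranges, although Pygm was the higher of them in 8 of 8 animals. Gbe1 (29.98), Gys1 (15.6), Phkb (13.5), Phka1 (11.7), Phkg1 (6.16), Phka2 (3.86) and Phkg2 (2.99) followed. Among these, neighbours from Gys1 downward overlapped in range, and Phkb exceeded Phka1 in 6 of 8 animals. In B3AR-Tg, Phkg1 was in the fifth place at 17.4 ± 1.70 CPM per kilobase, beside Gys1 at 17.7 ± 2.91, and did not differ from it beyond their spread (Gys1 higher in 5 of 8 animals). Phkg1 was above Phka1 in 6 of 8 B3AR-Tg animals. These places depend on the length: over the union of exons Phkg1 was at 6.35 in B3AR-Tg, below Phkb in 8 of 8 animals and with Gys1 at 13.6, and in WT it was at 2.25, below Phka2 at 2.63 in 6 of 8 animals.

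Pygm, the muscle glycogen phosphorylase on which phosphorylase kinase acts, was at 662.1 to 921.2 CPM in WT (median 749.4) and 776.7 to 946.9 CPM in B3AR-Tg (median 840.8). All 8 B3AR-Tg animals lay above the WT median, while 2 WT animals, replicates 2 and 7, reached into their range. The fitted difference was 0.16 with a standard error of 0.08 (95% interval −0.00224 to 0.32, edgeR adjusted p = 0.265). Pygb, the isoform named for brain and well expressed in heart, was at 759.2 ± 144.7 CPM in WT against 769.4 ± 61.9 CPM in B3AR-Tg, a difference of 0.02 (95% interval −0.19 to 0.23, edgeR adjusted p = 0.949). Pygm stood 45.4 ± 11.4 times above Phkg1 per kilobase in WT and 17.2 ± 1.72 times in B3AR-Tg, or 111.2 ± 27.9 and 42.2 ± 4.21 times over the union of exons. This ratio too carries the contrast that picked Phkg1.

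On the side of synthesis, Gys1, the muscle glycogen synthase, was at 50.1 to 68.6 CPM in WT (median 54.4) and 49.0 to 78.5 CPM in B3AR-Tg (median 65.0). The groups overlapped, with 3 B3AR-Tg animals above every WT animal and 1 below every WT animal, and the difference of 0.18 (95% interval −0.03 to 0.39) did not pass (edgeR adjusted p = 0.350). Gbe1 was at 85.3 ± 15.6 CPM in WT against 83.7 ± 10.1 CPM in B3AR-Tg, a difference of −0.03 (95% interval −0.25 to 0.19, edgeR adjusted p = 0.925). Pygm stood 17.2 ± 1.64 times above Gys1 per kilobase in WT and 17.2 ± 2.66 times in B3AR-Tg.

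A wider list of 54 glycogen genes placed the 9 in their pathway. Of its 49 tested genes 1 was called higher (Phkg1, against 2.03% of all tested genes) and 1 lower (Ppp1r3c, against 2.88%). The median fitted difference was 0.00 over the list and 0.01 over all tested genes, and 25 of 49 differences were above 0, which is 51.0% against 51.1% of all genes. Without the 9 genes, 40 were tested and their differences ran from −0.67 to 0.42. Of these 40, 8 had an unadjusted p under 0.05, or 20%, against 19.3% of all tested genes.

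Ppp1r3c encodes a scaffold that brings protein phosphatase 1 to glycogen, where the phosphatase opposes phosphorylase kinase and activates glycogen synthase. It was at 217.8 to 501.9 CPM in WT (median 240.4) and 126.8 to 225.1 CPM in B3AR-Tg (median 189.8). No B3AR-Tg animal lay above the WT median and 7 of 8 lay below every WT animal. It fell by 0.67 on the log2 scale (SE 0.17, edgeR adjusted p = 0.0242). The call was lost with library-size scaling (adjusted p = 0.0590, log2 difference −0.60), with the other-cell index as a covariate (0.115, −0.69) and without WT replicate 4 (0.0594, −0.58), B3AR-Tg replicate 5 (0.0506, −0.67) or B3AR-Tg replicate 8 (0.0522, −0.60), over alternatives whose adjusted p ran from 0.00386 to 0.115. The related scaffold of striated muscle, Ppp1r3a, was more abundant, at 498.7 ± 83.7 CPM in WT against 499.5 ± 59.6 CPM in B3AR-Tg (edgeR adjusted p = 0.996).

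Other steps of the pathway did not pass over all genes, and those given here were picked with their values known. The liver phosphorylase Pygl was at 8.14 ± 1.92 CPM in WT against 6.31 ± 0.933 CPM in B3AR-Tg (difference −0.37, edgeR adjusted p = 0.161). Glycogenin, the protein primer of the polymer (Gyg), was at 102.1 ± 7.87 and 87.5 ± 10.6 CPM (−0.22, edgeR adjusted p = 0.109), and Ugp2, which makes the UDP-glucose that synthase uses, at 606.8 ± 124.9 and 483.0 ± 115.4 CPM (−0.33, adjusted p = 0.208). Among the 7 genes of AMPK, whose beta subunits bind glycogen, fitted differences ran from −0.41 for Prkab2 to 0.41 for Prkab1 (edgeR adjusted p = 0.160 and 0.0891). Slc2a4, the insulin-responsive glucose transporter, was at 260.0 ± 39.3 CPM in WT against 326.6 ± 45.1 CPM in B3AR-Tg, with 8 of 8 B3AR-Tg animals above the WT median (0.33, edgeR adjusted p = 0.0725).

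**Figure D3:**
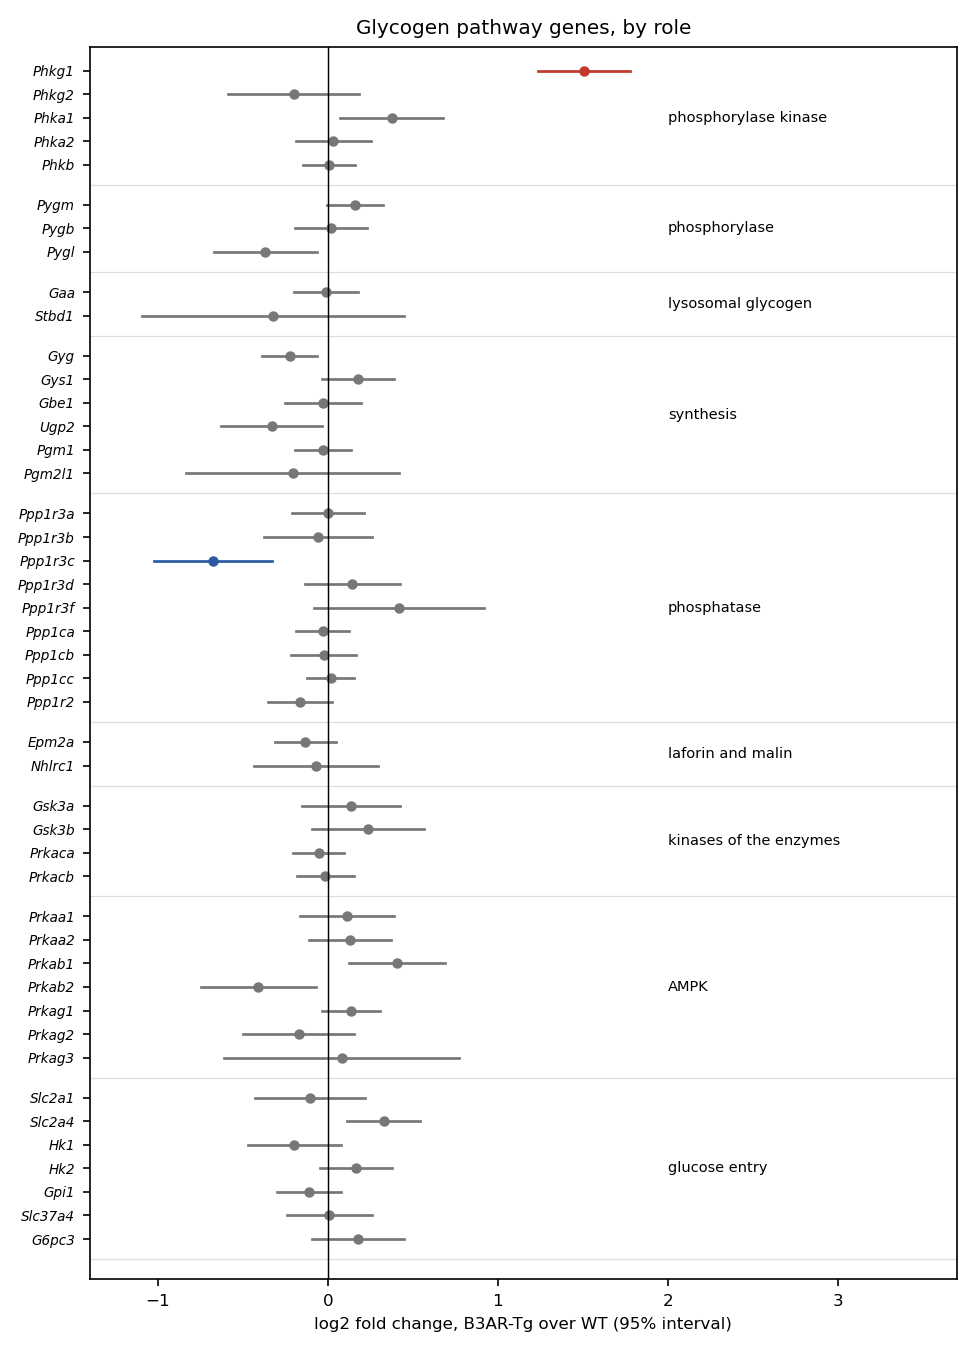
Fitted log2 differences (B3AR-Tg over WT, points) with 95% intervals (lines) for 45 of the 49 tested genes of the glycogen list, grouped by role. Phkg1 at 1.51 (red) and Ppp1r3c at −0.67 (blue) are the genes called by edgeR, and the grey genes did not pass.

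Genes around Phkg1 on chromosome 5 had lower fitted differences. Since Phkg1 was picked for its own difference, nothing is read from that gap. In the GENCODE M21 gene order, 13 tested genes lay within 250 kb of it, of which 0 passed by edgeR, 0 by DESeq2 and 0 by limma voom, and 1 (Nipsnap2, 0.19) had an unadjusted p under 0.05. Over all tested genes these shares were 4.91% and 19.3%, so that 0 calls among 13 genes is near the background. Their fitted differences ran from −0.52 (Tpst1) to 0.19 (Nipsnap2). Chchd2, a mitochondrial protein gene on the same strand that lies inside the longest annotated extent of Phkg1, was at 369.4 ± 29.2 CPM in WT against 374.1 ± 47.2 CPM in B3AR-Tg (difference 0.02, edgeR adjusted p = 0.936). Sumf2 runs on the opposite strand and overlaps the end of Phkg1 by 630 bases. It was at 2.71 ± 0.548 and 2.69 ± 0.564 CPM (−0.01, edgeR adjusted p = 0.990), below Phkg1 in both genotypes. Zbed5, on the opposite strand, overlaps Phkg1 by 2827 bases and held at most 9 counts in any animal. Gm42790, on the same strand, overlaps it by 969 bases and was absent from the deposited counts. The libraries were stranded, but how reads from such overlaps were assigned was not stated, so the level of Phkg1 is uncertain to that extent.

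**Figure D4:**
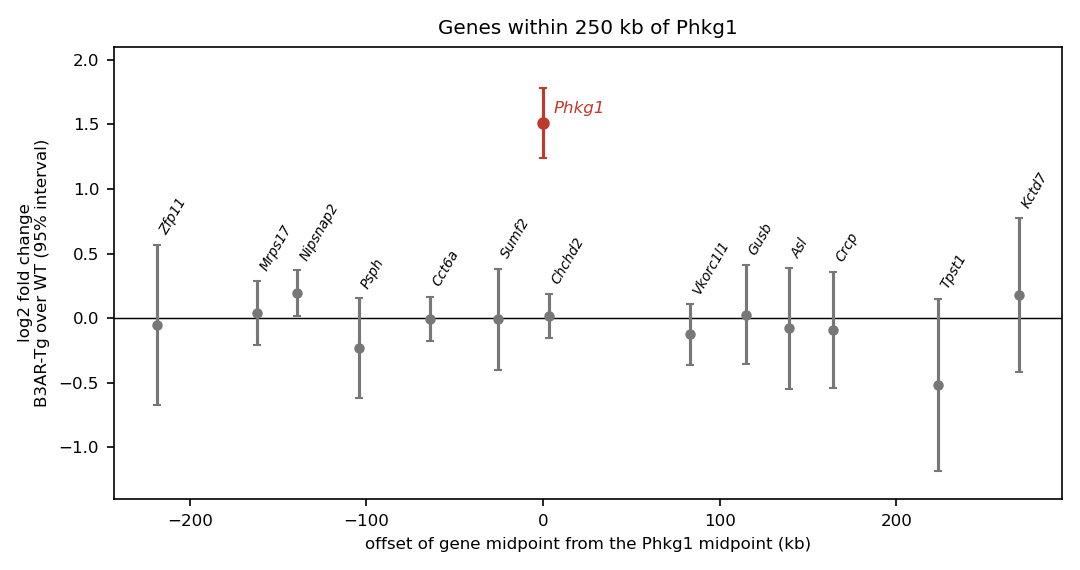
Fitted log2 differences with 95% intervals for Phkg1 (red) and the 13 tested genes within 250 kb (grey), placed by the offset of each gene's midpoint from that of Phkg1. Phkg1 stands at 1.51, the difference for which it was picked, and the neighbours between −0.52 and 0.19.

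Variation among animals of 1 genotype does not use the contrast that picked Phkg1, and it was examined within WT and within B3AR-Tg separately. Over 16 relations of the 8 partners with Phkg1 (log2 CPM, n = 8 each), Pearson r ran from −0.60 (Phkg2) to 0.61 (Phkb) in WT and from −0.51 (Gbe1) to 0.63 (Pygb) in B3AR-Tg. None of the 16 had an unadjusted exact permutation p under 0.05, and none passed after adjustment. With both genotypes centred on their means, the partners most like Phkg1 over the 16 animals were Pygm (r = 0.46, place 594 of 10927 genes) and Phkb (0.43, place 733), and the least like was Phkg2 (−0.52). Within WT, r was 0.51 for Pygm and 0.61 for Phkb. Without WT replicates 4 and 7, farthest from the median of Phkg1, these became −0.70 and 0.23. Within B3AR-Tg, r was 0.30 for Pygm and 0.29 for Phkb, and 0.22 and 0.62 without replicates 2 and 8.

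A load index was taken as the mean log2 CPM of Nppa, Nppb, Myh7, Acta1 and Ankrd1, genes that rise in loaded myocytes. It ran from 9.38 to 11.3 in WT and from 7.48 to 9.60 in B3AR-Tg. WT replicates 2, 4 and 8 lay at 11.1 to 11.3, apart from the other 5 WT animals at 9.38 to 10.2. For Phkg1 the coefficient was negative within WT (r = −0.57, rho = −0.48, exact permutation p = 0.150 and 0.243) and within B3AR-Tg (r = −0.65, rho = −0.62, exact permutation p = 0.0733 and 0.115), and neither relation passed (adjusted over 18, p = 0.385 and 0.220 for r). Without the 2 animals farthest from the median index, r was 0.18 in WT and −0.40 in B3AR-Tg, so the WT value rests on replicates 2 and 4. The ranges met in 1 B3AR-Tg animal. B3AR-Tg replicate 7, at a load index of 9.60, had 37.6 CPM of Phkg1, while WT replicates 3, 6 and 5, at 9.38, 9.43 and 9.67, had 16.01, 15.004 and 13.7 CPM. Every B3AR-Tg animal lay above every WT animal in Phkg1, the contrast that picked it, so this comparison could not have come out otherwise. How far load and genotype each bear on Phkg1 was not tested.

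Pygb, Gbe1 and Phka1 had the highest Pearson coefficients with the load index within WT. By rho, Phkg2 stood between Pygb and Gbe1 (rho = 0.76, r = 0.67, exact permutation p = 0.0368 and 0.0706). For Pygb r was 0.87 and rho 0.83 (exact permutation p = 0.00677 and 0.0154), and for Gbe1 r was 0.76 and rho 0.74 (exact permutation p = 0.0158 and 0.0458), in 8 animals each. For Phka1 r was 0.72 and rho 0.60 (exact permutation p = 0.0456 and 0.132). Pygb, Gbe1, Phka1 and Phkg2 did not pass over the 18 relations of this family (adjusted p = 0.122, 0.142, 0.220 and 0.220 for r). Without replicates 2 and 4, r was 0.90 for Pygb, 0.88 for Gbe1, 0.77 for Phka1 and 0.42 for Phkg2. The 3 WT animals with the highest index, replicates 2, 4 and 8, had 864.6, 851.4 and 1030.1 CPM of Pygb, and the other 5 between 607.0 and 731.3 CPM. Within B3AR-Tg, r was −0.13 for Pygb and 0.69 for Gbe1 (exact permutation p = 0.735 and 0.0626), and the difference between genotypes was not tested.

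An other-cell index, the mean log2 CPM of the 18 tested markers of fibroblasts, endothelium, mural cells and leukocytes, ran from 2.77 to 3.37 in WT and from 1.21 to 2.98 in B3AR-Tg. The coefficient of Phkg1 with it did not pass within WT (r = −0.03, rho = 0.19, exact permutation p = 0.940 and 0.665; r = 0.64 without WT replicate 2) or within B3AR-Tg (r = −0.38, rho = −0.19, exact permutation p = 0.365 and 0.665). Its fitted difference was between 1.43 and 1.61 over 25 other fits, the one with this index as a covariate included. This contrast had picked Phkg1, so nothing is read from that range. Pygb went down as the index went up within B3AR-Tg (r = −0.95, rho = −0.90, exact permutation p = 0.00129 and 0.00456, adjusted over 18 relations p = 0.0232 for r and 0.0821 for rho). B3AR-Tg replicate 2 had the lowest index and the highest Pygb, 893.8 CPM, and replicate 4 the highest index and the lowest Pygb, 708.4 CPM. Without those 2 animals r was −0.80. Leaving out replicate 2 alone gave −0.86 (adjusted p = 0.168), and replicate 4 alone −0.94 (adjusted p = 0.05). With 1 animal left out, the permutation p was adjusted over the 9 relations within B3AR-Tg and not over 18, so these values are not on the same scale. Pygm had a negative coefficient in B3AR-Tg as well (r = −0.76, rho = −0.76, exact permutation p = 0.0210 and 0.0368, adjusted p = 0.126 for r) and a positive one in WT (r = 0.82, rho = 0.83, exact permutation p = 0.0123 and 0.0154, adjusted p = 0.110 for r), and the difference between genotypes was not tested. Without B3AR-Tg replicate 6, r for Pygm in B3AR-Tg was −0.95 (adjusted p = 0.00179, over 9 relations). Without replicate 2 it was −0.59 (adjusted p = 0.728), and without replicates 2 and 4 it was −0.54. With each B3AR-Tg animal left out in turn, Pygm did not pass in 7 of 8 cases.

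**Figure D5:**
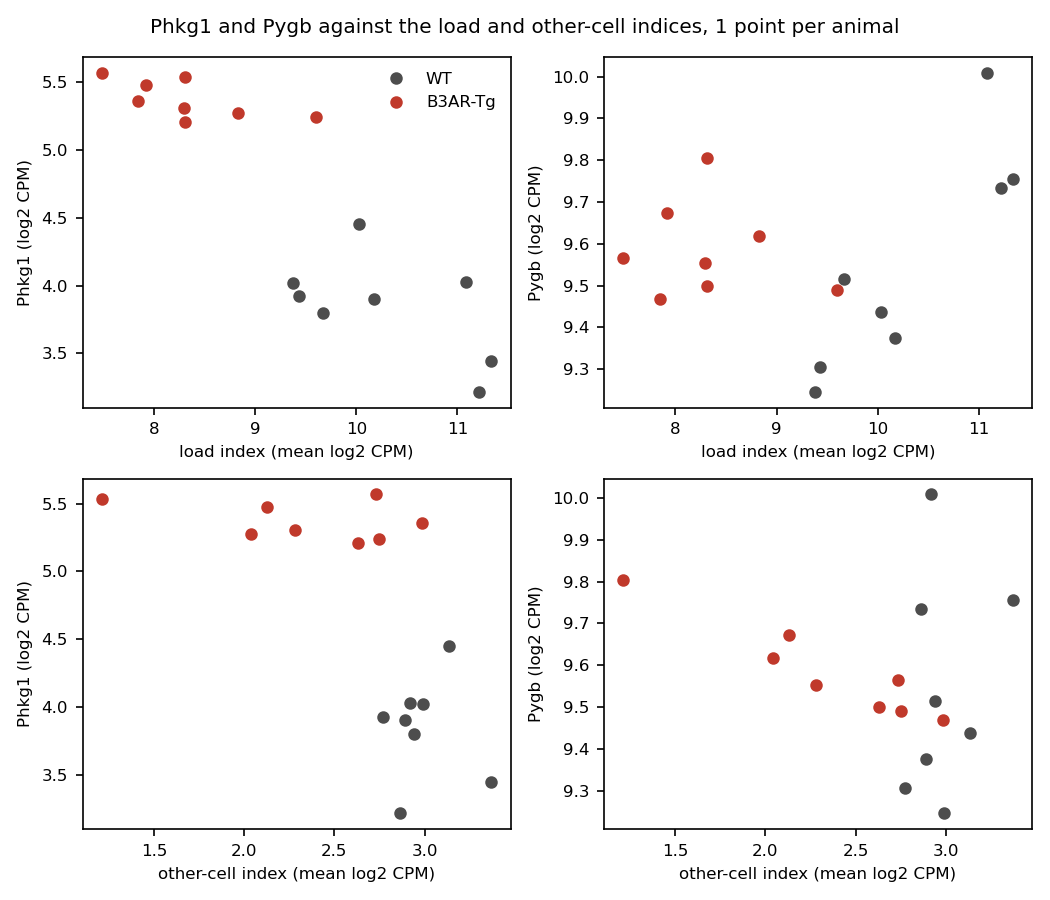
Phkg1 and Pygb (log2 CPM) against the load index (top) and the other-cell index (bottom), 1 point per animal in WT (grey) and B3AR-Tg (red). B3AR-Tg replicate 7 is the B3AR-Tg animal within the WT range of the load index, and the coefficients of Pygb are 0.87 with the load index in WT (adjusted p = 0.122, not passed) and −0.95 with the other-cell index in B3AR-Tg.

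The genes whose pattern was most like that of Phkg1 were listed over the 16 animals, with each genotype centred on its own mean and genes of at least 1 CPM compared, as a description without a test. The 5 highest Pearson coefficients belonged to Pla2g5 (0.83), a secreted phospholipase, Idh3a (0.82), a subunit of the citric acid cycle enzyme isocitrate dehydrogenase, Ppil1 (0.81), a prolyl isomerase of the spliceosome, Aqp4 (0.80), a water channel, and Mmp15 (0.79), a membrane-bound matrix protease. The 5 lowest belonged to Mtmr10 (−0.87), Tmtc2 (−0.82), Atl1 (−0.82), Dct (−0.80) and Cdkl2 (−0.79). Within WT alone the coefficient of Pla2g5 was 0.95 and within B3AR-Tg alone 0.39, and Idh3a had 0.87 and 0.76. Ppil1 had 0.94 and 0.64, Aqp4 0.88 and 0.56, and Mmp15 0.85 and 0.14. Every gene listed here had a stronger coefficient within WT than within B3AR-Tg. Phkg1 varied more in WT (relative spread 25.9% against 9.75%), so the joint ranking leans on WT and nothing is read from this. Aqp4 was at 5.42 CPM in WT against 16.5 CPM in B3AR-Tg, and Idh3a at 330.1 and 362.2 CPM. Between genotypes, Pla2g5, Ppil1, Aqp4 and Mmp15 were called higher in B3AR-Tg (edgeR adjusted p = 0.0278, 0.00811, 0.00265 and 0.0426). Idh3a did not pass (0.326). Cdkl2 was called lower (edgeR adjusted p = 0.0297), and Mtmr10, Tmtc2, Atl1 and Dct did not pass. Of all tested genes, 2.03% were called higher and 2.88% lower. No phosphorylase kinase or glycogen enzyme gene of the 9 was among these 10.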

How the data were processed

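The authors deposited whole-number counts per gene for 16 libraries, 1 per animal, with no normalization. Per the submitters' processing notes Salmon and GRCm39 were used, with no version or setting given. Salmon estimates counts, so reads shared by similar genes may be split between them. Per the labels' protocols, ribosomal RNA was depleted from 500 ng of total RNA and libraries were stranded. Columns were matched to animals by the names in their titles.

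Genotypes were compared on the counts as deposited with the quasi-likelihood test of edgeR 4.0.16 in R 4.3.3 (filterByExpr with a minimum count of 10, TMM scaling, genotype only), with two-sided Benjamini-Hochberg adjusted p-values over 10945 genes and a threshold of 0.05. Intervals use the fitted standard error and moderated degrees of freedom. Log2 CPM used a prior count of 2. Correlations used all 40320 pairings of 8 animals. Lengths, gene order and chromosomes came from GENCODE M21 by gene ID, and promoters from RefSeq (GRCm38.p6), where 9 of 9 genes matched; no files' coordinates were converted. The members and lists were chosen with earlier results of these data known. Named genes were the 9 members, list genes that passed, genes within 250 kb of Phkg1 and the 5 genes most and least like it; other list genes given were picked with their values known. The order of levels per kilobase depends on the transcript length used. Alternatives were RLE and library-size scaling, 2 other filters, DESeq2 1.42.0, limma voom 3.58.1, the other-cell index, a replicate block, removal of mitochondrially encoded genes, 2 thresholds, a prior count of 0.5, 2 other transcript lengths and removal of each animal. In simulated data of 10945 genes with 200 changed at a log2 difference of 0.5, edgeR recovered 42.6%, and at 1 it recovered 88.7%. Some genes of the glycogen list entered its counts but are not reported here by name.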

Additional observations from a re-analysis of the deposited data

How the results depend on the processing

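No partner was called under any of the 27 alternatives; the 1 member called in each was Phkg1, which this contrast had picked, so nothing is read from it. The number of genes called overall (537) was 908 and 109 at thresholds of 0.1 and 0.01, 840 with DESeq2, 97 with the other-cell index as a covariate, 230 with the replicate block, and between 272 and 675 when 1 animal was left out (272 without WT replicate 4, 277 without B3AR-Tg replicate 5, 345 without B3AR-Tg replicate 8). With library-size scaling 511 were called, 346 higher and 165 lower, against 222 and 315. The glycogen list (2 calls) gave 4 and 1 at those thresholds, 4 with DESeq2 (Phkg1, Slc2a4, Ppp1r3c and Pgm2), 1 with the covariate, 1 with the replicate block (adjusted p of Ppp1r3c 0.0906) and between 1 and 3 with 1 animal left out; library-size scaling gave 3 (Phkg1, Prkab1 and Slc2a4). Differences near 0 changed sign, and none of these passed in any fit: Phka2 to −0.0378 and Pygb to −0.0754 with the covariate, Gbe1 to 0.0417 with library-size scaling, and, with 1 animal left out, Phkb between −0.0157 and 0.0395, Pygb between −0.0209 and 0.0943 and Gbe1 between −0.0852 and 0.0444. The correlation of Phkg1 with the other-cell index ran from −0.33 to 0.64 (without replicate 2) in WT and from −0.69 to 0.0155 in B3AR-Tg. The cause of these changes was not tested. Same-numbered animals did not deviate together (r from −0.22 to 0.09 over 8 pairs, 0 of them best matched to their own number), so the numbers do not pair them. Counts under about 100, as for Phkg2, limit how small a difference can be seen.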

Other observations

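Of the glycogen list, 5 genes were too low for the filter and entered no comparison above. Gys2, the liver glycogen synthase, held 0 to 2 counts in WT and 0 to 5 in B3AR-Tg. The phosphatase scaffolds Ppp1r3e and Ppp1r3g held at most 8 and 9 counts in any animal, and the phosphatase inhibitor Ppp1r1a 3 to 10. Pgm2, a phosphoglucomutase paralog, held 4 to 18 counts in WT (median 12) and 0 to 11 in B3AR-Tg (median 4.5), or 1.20 ± 0.450 and 0.451 ± 0.297 CPM. DESeq2, which applies another filter, called it lower in B3AR-Tg (log2 difference −1.34, adjusted p = 0.0300), while edgeR without a filter did not (−1.31, adjusted p = 0.119). The abundant paralog Pgm1 was at 181.0 ± 18.5 CPM in WT against 177.3 ± 17.3 CPM in B3AR-Tg (edgeR adjusted p = 0.882).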
